A study of Mus musculus with 18 samples.

Results

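The genes described here copy DNA or divide the cell: 41 genes of S phase and mitosis, given by symbol, of which 40 had a probe set on the arrays and are reported, among 18194 genes measured in all. Of the 40, 16 act before or during replication and 24 act in mitosis. Each gene is represented by the probe set with the highest mean over all 18 arrays. The rule names Ccnb1, for which the probe annotation lists no probe set, and its RNA is not analysed here. Its promoter is counted among the mitotic genes in the motif search below. The 40 genes had 93 probe sets between them, and 11 genes had a single one.

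Mouse embryonic fibroblasts (MEFs), connective tissue cells grown from embryos, were taken from E13.5 embryos, passaged 2 to 3 times, plated for 24 h and then given fresh medium for 3 h. They were wild type (WT), Atf4-/- or Cebpg-/-, and they were given either normal medium or AAD (amino acid-deprived) medium. The AAD medium was based on Krebs-Ringer buffer, and the labels do not list its supplements. The 6 groups of genotype and medium had 3 arrays each, with biotin-labelled RNA on Affymetrix Mouse Genome 430 2.0 arrays. ATF4 is a transcription factor of the integrated stress response, which cells enter when amino acids run short, and C/EBPγ, encoded by Cebpg, is a basic leucine zipper protein that can pair with it.

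The labels do not say how many embryos gave the cells of a genotype, nor whether replicates are separate cultures. A genotype and the embryos it came from cannot be told apart, and p-values then cover only the spread among these arrays, which may be technical. Values are log2 RMA values, so a difference of 1 is 2-fold, and levels of different genes are not compared. Differences are given ± SE from limma with n = 3 arrays per group. A gene is said to be lower, higher, raised or to have fallen where limma's adjusted p (Benjamini-Hochberg over the 13728 genes tested) was under 0.05.

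In normal medium the level of Atf4 by its brightest probe set was 6.50 ± 0.16 (SD, n = 3) in Atf4-/- cells against 12.10 ± 0.07 in WT cells. None of the 3 Cebpg probe sets was near background on the arrays labelled Cebpg-/-: in normal medium their means were 9.31, 7.75 and 5.87 there against 9.27, 8.25 and 5.38 in WT cells. The second was lower than WT and the third higher, both without overlap. In AAD medium the first (9.59 against 10.33) and the second (8.21 against 9.26) were lower without overlap. In Atf4-/- cells in normal medium the 3 means were 7.91, 7.36 and 5.28, each under that of the arrays labelled Cebpg-/-. The labels do not say which stretch of Cebpg was deleted, so these probe sets do not check that label. All 11 fibroblast markers measured lay above 4.65, the level under which a gene was left out, in every group, and 5 of 6 endothelial markers lay under it. Macrophage markers were present in every group and differed with genotype, as given below beside the results.

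In dividing fibroblasts, cyclin E with its kinase CDK2 releases E2F factors, which turn on genes for origin licensing and nucleotide synthesis before S phase. CDC6 and CDT1 then load the MCM helicase onto origins, and PCNA clamps the polymerases to the template. Later, cyclins A and B with CDK1, the Polo and Aurora kinases and the transcription factor FOXM1 carry the cell into mitosis, where checkpoint proteins hold back the anaphase-promoting complex (APC/C) until every kinetochore is attached. In cells that leave the cycle, the DREAM complex, made of a p107 or p130 pocket protein, an E2F and the MuvB core, silences both groups.

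Both groups were lower in Atf4-/- cells, and the mitotic genes were lower by more. In normal medium the mean over the 24 mitotic genes was 9.79, 9.89 and 9.78 on the WT arrays and 8.19, 8.01 and 7.30 on the Atf4-/- arrays. The mean over the 16 replication genes was 9.94, 10.07 and 9.92 on the WT arrays and 9.32, 9.12 and 8.73 on the Atf4-/- arrays. Neither group's Atf4-/- arrays overlapped WT. The mitotic mean minus the replication mean was -1.23 ± 0.18 (SD, n = 3) in Atf4-/- cells, against -0.16 ± 0.02 in WT cells and -0.16 ± 0.04 in those labelled Cebpg-/-. These arrays measure RNA of whole cultures, so fewer cycling cells and less RNA per cycling cell cannot be told apart.

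**Figure D1:**
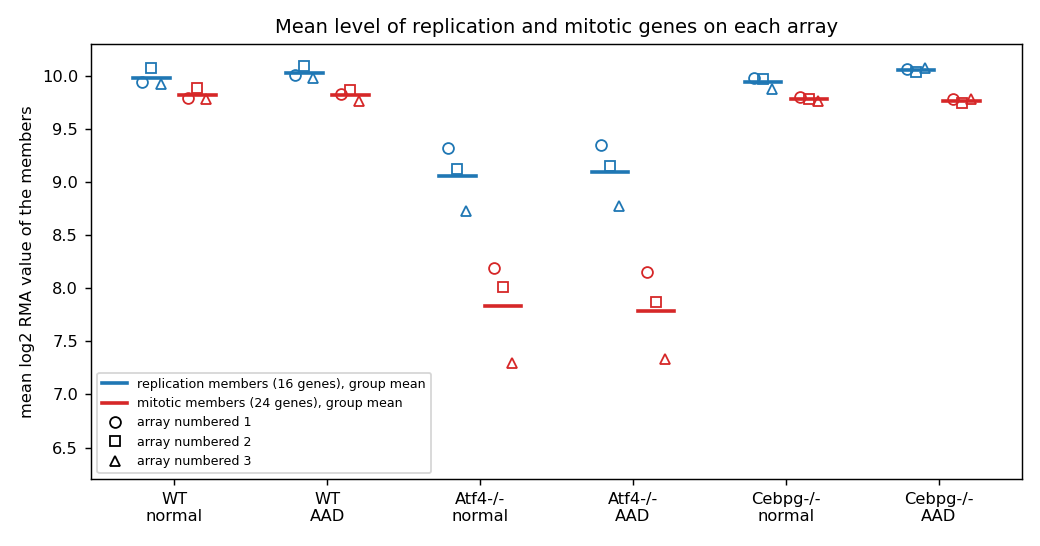
Mean log2 RMA value of the 16 replication genes (blue) and the 24 mitotic genes (red) on each array, by genotype and medium. Bars are group means and the marker shape is the replicate number. The Atf4-/- arrays lie below the others, the mitotic genes more so (7.83 against 9.82 in WT cells, normal medium), and the array numbered 3 is the lowest in both media.

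Promoters of the 2 groups carry different short elements, and a few are shown because the groups moved by different amounts. Windows from 250 bases before to 50 bases after the start of transcription (RefSeq, GRCm38.p6) were given for 34 of the 41 genes, in 36 windows, and not for Ccne2, Mcm4, Ccna2, Foxm1, Aurkb, Kif20a and Tpx2. The windows were searched on both strands for the CHR (TTTGAA), the element through which MuvB binds late cell cycle genes, for the CCAAT box (CCAAT), the site of NF-Y, and for 4 spellings of the E2F site (TTTGGCGC, TTTCGCGC, TTTCCCGC, TTTGCCGC). In the 36 windows 2 pairs of matches to different motifs overlapped. A match is a run of letters and not a measured site.

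The CHR letters stood in 15 of 20 mitotic genes (75.0%) and 1 of 14 replication genes (7.14%, Mcm2), against 17.9% of all 32851 windows and 14.3% of the genes tested. The E2F letters stood in 6 of 14 replication genes (42.9%: Cdc6, Cdt1, Mcm3, Mcm5, Mcm6 and Mcm7) and in 1 of 20 mitotic genes (5.0%, Cdk1), against 2.26% of all windows and 4.4% of the genes tested. CCAAT was found in 18 of 20 mitotic genes (90.0%), 8 of 14 replication genes (57.1%), 37.4% of all windows and 42.4% of the genes tested. The median difference of Atf4-/- from WT cells in normal medium was -2.14 over 15 mitotic genes with CHR letters (range -2.73 to -1.70). It was -2.11 over the 4 measured mitotic genes without them (Bub1, Birc5, Cenpe and Nusap1), with a range of -2.17 to -1.25. With only 4 genes without the letters, no conclusion is drawn.

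Shown are the 160 bases before the start, 5′ to 3′ along the gene, with all motif matches in capitals. The first 4 are mitotic: Cdc20 (chr4:118437344-118437503, minus strand) and Kif11 (chr19:37376222-37376381, plus strand) each have a single CHR close to the start, with a pair of CCAAT boxes in Cdc20 and one in Kif11. Cdk1 (chr10:69352913-69353072, minus strand) has a pair of CHR matches and the only E2F match among the mitotic genes. Ccnf (chr17:24251410-24251569, minus strand), which also has a pair of CHR matches, is shown because it fell in AAD medium in WT cells.
Cdc20: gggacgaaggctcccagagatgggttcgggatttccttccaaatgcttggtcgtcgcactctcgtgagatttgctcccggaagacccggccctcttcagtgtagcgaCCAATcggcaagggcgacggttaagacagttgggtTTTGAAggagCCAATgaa
Kif11: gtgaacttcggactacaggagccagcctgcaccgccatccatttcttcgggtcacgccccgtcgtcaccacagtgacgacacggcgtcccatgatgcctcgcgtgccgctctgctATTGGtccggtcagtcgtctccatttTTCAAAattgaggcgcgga
Cdk1: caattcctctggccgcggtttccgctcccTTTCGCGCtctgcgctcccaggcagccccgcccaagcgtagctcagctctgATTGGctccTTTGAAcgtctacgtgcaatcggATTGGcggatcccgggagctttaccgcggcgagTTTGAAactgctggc
Ccnf: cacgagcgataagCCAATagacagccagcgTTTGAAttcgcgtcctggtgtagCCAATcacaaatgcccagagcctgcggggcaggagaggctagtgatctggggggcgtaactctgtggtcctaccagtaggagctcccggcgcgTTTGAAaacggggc
The other 3 are licensing genes with E2F letters and no CHR: Mcm5 (chr8:75109349-75109508, plus strand), Mcm6 (chr1:128359706-128359865, minus strand) and Cdc6 (chr11:98907991-98908150, plus strand). In Mcm5 and Mcm6 matches on opposite strands run into each other.
Mcm5: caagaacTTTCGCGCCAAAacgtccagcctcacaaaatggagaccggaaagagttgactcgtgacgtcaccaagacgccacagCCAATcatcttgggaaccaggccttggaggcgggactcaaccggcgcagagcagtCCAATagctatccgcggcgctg
Mcm6: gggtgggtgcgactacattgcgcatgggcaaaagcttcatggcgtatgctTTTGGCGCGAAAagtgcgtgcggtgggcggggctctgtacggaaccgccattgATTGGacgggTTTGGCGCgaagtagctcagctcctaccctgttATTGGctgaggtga
Cdc6: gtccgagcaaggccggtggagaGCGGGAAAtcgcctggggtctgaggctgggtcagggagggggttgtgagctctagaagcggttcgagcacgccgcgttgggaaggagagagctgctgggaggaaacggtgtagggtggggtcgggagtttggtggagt
Mcm5 and Cdc6 were among the replication genes that differed most between Atf4-/- and WT cells and Mcm6 among those that differed least, as given below.

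Comparing Atf4-/- with WT cells in normal medium shows how these genes differed with genotype where amino acids were not taken away. Of the 40 genes, 39 were lower and 0 higher, where 21.4% of the 13728 genes tested were lower and 30.2% higher. All 24 mitotic genes were lower, with a median difference of -2.05 (4.15-fold), and 15 of 16 replication genes were lower, with a median of -0.77 (1.71-fold). Tyms is in every count, median and mean of the replication genes, although it passed the filter only through groups where it is high. The median over all genes tested was 0.02. In 27 genes, 22 mitotic and 5 replication, the fall was at least 2-fold, which 3.92% of all genes tested showed. For 39 of the 40 genes all Atf4-/- arrays lay below all WT arrays, as they did for 25.1% of all genes. AAD medium gave 37 of 40 lower (22.9% of all genes), with medians of -2.23 for the mitotic and -0.87 for the replication genes. This comparison and the one of Cebpg-/- with WT cells share the WT arrays.

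Among the genes of the start of S phase, the 2 cyclins E were lower in Atf4-/- cells and E2f1 was not. Ccne2, an activator of CDK2, was 9.50, 9.25 and 9.24 on the WT arrays and 7.78, 7.49 and 6.94 on the Atf4-/- arrays in normal medium, a difference of -1.92 ± 0.19 (limma adjusted p = 3.58e-07). Ccne1, the other cyclin E, differed by -0.78 ± 0.16. E2f1, which encodes an activating E2F, was 7.06, 7.28 and 7.21 in WT and 7.14, 7.07 and 6.99 in Atf4-/- cells, and the arrays overlapped. Its difference of -0.12 ± 0.07 did not pass (limma adjusted p = 0.188) and its 95% interval ran from -0.26 to 0.03. With the mean of all its probe sets, E2f1 did pass in AAD medium, at -0.16 (limma adjusted p = 0.0228).

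The 8 licensing genes were all lower, by amounts that ranged from -1.64 to -0.33 although 6 of them encode parts of 1 complex. Cdc6, which loads the helicase with CDT1, was 8.17, 8.44 and 8.19 on the WT arrays and 7.10, 6.58 and 6.19 on the Atf4-/- arrays in normal medium (-1.64 ± 0.23). Mcm5, a helicase subunit, was 10.57, 10.71 and 10.52 in WT and 9.59, 9.31 and 8.63 in Atf4-/- cells (-1.42 ± 0.21). Neither gene's groups overlapped, and the array numbered 3 was the lowest for each. The other subunits differed by less: Mcm3 by -0.87 ± 0.17, Mcm2 by -0.74 ± 0.13, Mcm4 by -0.70 ± 0.12, Mcm7 by -0.40 ± 0.11 and Mcm6 by -0.34 ± 0.10. The 95% intervals of Mcm5 (-1.86 to -0.99) and Mcm6 (-0.55 to -0.14) did not meet. The difference between the 2 genes was not tested. Cdt1, the other loader, was 10.43, 10.65 and 10.44 in WT and 10.25, 10.20 and 10.08 in Atf4-/- cells, and its fall, like that of Mcm6, was the smallest of the 8 (-0.33 ± 0.09, limma adjusted p = 0.0043).

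The 5 genes of the clamp and of nucleotide supply were all called lower, by amounts from -1.86 to -0.51. Tyms is counted among them, with a limit given at the end of this paragraph. Tk1, thymidine kinase of the salvage pathway, was 9.33, 9.54 and 9.18 in WT and 7.96, 7.72 and 6.78 in Atf4-/- cells (-1.86 ± 0.28). Rrm2, the small subunit of ribonucleotide reductase, differed by -1.50 ± 0.21, and Rrm1, the large subunit, by -0.80 ± 0.10. For each of these 3 genes no Atf4-/- array reached the lowest WT array. Pcna, the sliding clamp, was 12.33, 12.48 and 12.34 in WT and 12.12, 11.88 and 11.61 in Atf4-/- cells, the smallest fall of the 5 (-0.51 ± 0.11). Tyms, thymidylate synthase, lay near the filter level: 4.96 ± 0.19 (SD, n = 3) in WT and 4.19 ± 0.19 in Atf4-/- cells. It passed the filter only through the groups in normal medium labelled WT and Cebpg-/-. Its differences from the other groups are therefore not read as results.

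Of the genes of mitotic entry, Plk1 and Ccnb2 differed most, and the median difference of this group was -1.98. Plk1, the Polo-like kinase of spindle poles and kinetochores, was 9.06, 9.25 and 9.17 on the WT arrays and 6.86, 6.57 and 5.87 on the Atf4-/- arrays in normal medium. Its difference of -2.73 ± 0.20 (6.64-fold, limma adjusted p = 1.63e-08) was the largest of the 40 genes. Ccnb2, cyclin B2, was 10.24, 10.39 and 10.23 in WT and 8.20, 7.75 and 6.92 in Atf4-/- cells (-2.67 ± 0.24). The Atf4-/- arrays of both genes lay over 2 units below WT, and they spread by more than the WT arrays did. Cdk1, the catalytic partner of both cyclin types, differed by -1.99 ± 0.18, Aurka, the kinase of spindle poles, by -1.98 ± 0.19, Ccna2, cyclin A2, by -1.93 ± 0.22 and Ccnf by -1.91 ± 0.14. Foxm1, whose product activates many of these genes in G2, was 6.94, 7.16 and 7.19 in WT and 6.42, 6.55 and 6.34 in Atf4-/- cells. Its fall, -0.66 ± 0.07 (1.58-fold, limma adjusted p = 1.95e-06), was the smallest among the 24 mitotic genes.

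The checkpoint, APC/C and passenger genes fell by similar amounts, from -2.26 to -1.80. Bub1b, a checkpoint kinase-like protein, was 8.94, 9.04 and 8.86 in WT and 6.98, 6.65 and 6.41 in Atf4-/- cells (-2.26 ± 0.15). Cdc20, the activator of the APC/C, was 11.85, 11.86 and 11.78 in WT and 9.72, 9.87 and 9.18 in Atf4-/- cells (-2.24 ± 0.14). The groups of both genes were far apart, with no overlap. Bub1, a checkpoint kinase, differed by -2.17 ± 0.20, and Ube2c, the ubiquitin-conjugating enzyme of the APC/C, by -2.06 ± 0.19. The 3 passenger complex genes, which correct faulty attachments and help divide the cell, differed by -2.05 ± 0.24 (Birc5, survivin), -2.01 ± 0.26 (Aurkb) and -1.80 ± 0.25 (Cdca8, borealin).

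Among chromosome and spindle genes 9 of 10 were lower by at least 2-fold. Mki67, the Ki-67 protein that coats mitotic chromosomes and is widely used to count cycling cells, was 10.87, 10.92 and 10.76 in WT and 8.78, 8.55 and 7.53 in Atf4-/- cells (-2.56 ± 0.25, 5.91-fold). The mitotic kinesins Kif20a (-2.45 ± 0.19), Kif23 (-2.15 ± 0.17) and Kif11 (-2.14 ± 0.28), which work in cytokinesis and at the spindle poles, were lower together with the kinetochore genes Cenpf (-2.26 ± 0.27) and Cenpe (-2.17 ± 0.23). Prc1, which bundles midzone microtubules, differed by -1.73 ± 0.17 and Top2a, the topoisomerase that untangles sister chromatids, by -1.70 ± 0.21. Nusap1, a microtubule-binding protein, differed by -1.25 ± 0.19. Tpx2, the activator of Aurora A on the spindle, was 9.58, 9.62 and 9.57 in WT and 8.97, 8.85 and 8.36 in Atf4-/- cells, the smallest fall of the 10 (-0.86 ± 0.14).

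**Figure D2:**
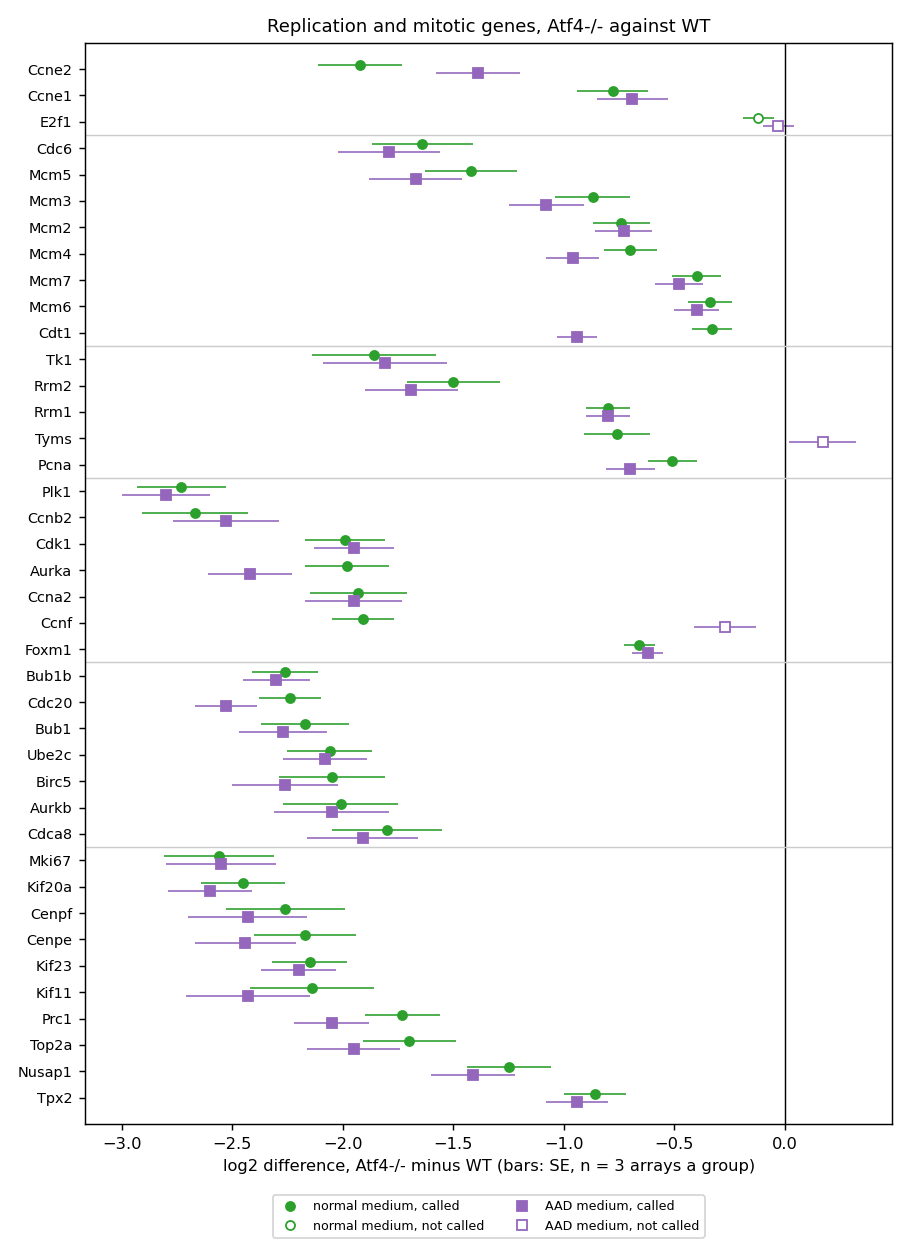
Log2 difference between Atf4-/- and WT cells for each of the 40 genes, in normal medium (circles) and AAD medium (squares), with bars of 1 SE (n = 3 arrays per group). Genes are grouped from top to bottom as start of S phase, licensing, clamp and nucleotides, mitotic entry, checkpoint and passenger complex, and chromosome and spindle. Filled markers passed the test: 39 genes in normal medium and 37 in AAD medium, and Tyms and Ccnf lie near 0 in AAD medium only.

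Most other probe sets of the same genes that passed the filter were lower too. Of the probe sets not chosen, 22 of mitotic genes passed the filter on low values and all 22 were lower in Atf4-/- cells in normal medium, with a median of -1.85. Of 19 such probe sets of replication genes, 16 were lower and 3 did not pass, with a median of -0.70. These shares cover only the probe sets that passed the filter, and the share over all probe sets is not given. A dim probe set can pass through the groups in which it is high. The counts are therefore a description and not separate support.

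**Figure D3:**
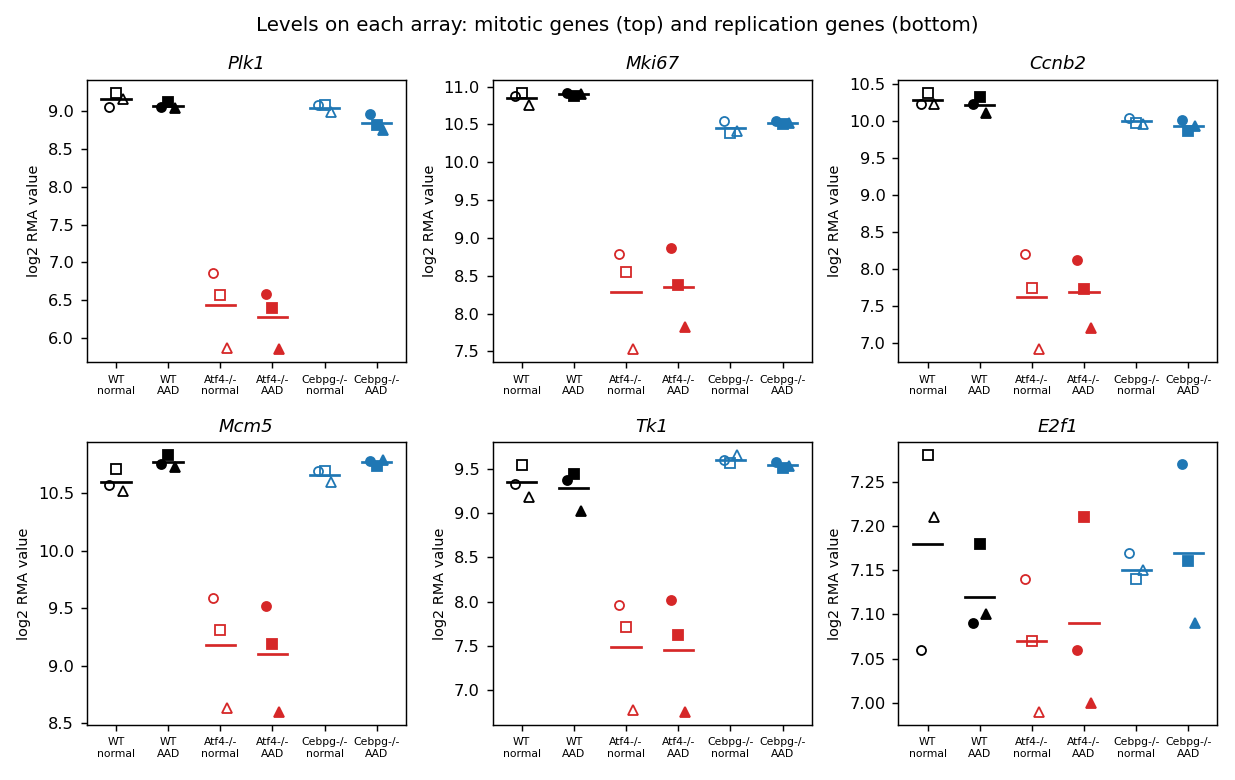
Log2 RMA value on each array of 3 mitotic genes (Plk1, Mki67, Ccnb2) and 3 replication genes (Mcm5, Tk1, E2f1), by genotype and medium. Bars are group means, the shape is the replicate number and filled markers are AAD medium. In the first 5 genes every Atf4-/- array lies below every other array, while the E2f1 groups overlap on a much narrower axis (6.99 to 7.28).

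The Atf4-/- arrays differed among themselves more than those of other groups. The median SD over the 40 genes was 0.44 in normal medium and 0.39 in AAD medium in Atf4-/- cells, against 0.09 and 0.06 in WT cells, 0.05 and 0.06 in cells labelled Cebpg-/-, and 0.09 over all genes tested in Atf4-/- cells in either medium. The array numbered 3 was the lowest of the 3 for 39 of the 40 genes in each medium, and the array numbered 1 was the highest for 37. Mki67, for example, was 8.78, 8.55 and 7.53 in normal medium and 8.86, 8.38 and 7.82 in AAD medium. Over all genes, too, same-numbered arrays of a genotype deviated together across the media, and the labels do not say what the number stands for. Without both Atf4-/- arrays numbered 3, 39 genes were called in normal medium and 37 in AAD medium. The median differences were then -1.81 and -1.98 for the mitotic genes and -0.63 and -0.76 for the replication genes.

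Other genes of the same processes, taken from lists, were lower as well. Of 43 other replication genes tested, 35 were lower and 3 higher in Atf4-/- cells in normal medium, against 21.4% and 30.2% of all genes. The median difference of the 43 was -0.75. The largest changes were those of Orc1, an origin recognition subunit (-1.67 ± 0.16), Gmnn, geminin, the inhibitor of CDT1 (-1.54 ± 0.14), Gins1, part of the active helicase (-1.43 ± 0.16) and Mcm10, which helps fire origins (-1.37 ± 0.16). Of 59 other mitotic genes 55 were lower and 1 was higher, with a median of -1.49, led by Cdkn3 (-2.65 ± 0.27), the centromeric histone gene Cenpa (-2.62 ± 0.16), the spindle pole gene Aspm (-2.44 ± 0.20) and the abscission gene Cep55 (-2.35 ± 0.21). The genes that were higher were Orc5 (0.74 ± 0.11), Rnaseh2a (0.38 ± 0.08) and Orc4 (0.22 ± 0.05) among the replication genes and Psrc1 (0.85 ± 0.12), whose product binds spindle microtubules, among the mitotic ones. These lists were drawn up with earlier results of the same arrays known.

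Regulators upstream of these genes were lower more often than higher. Of 17 E2F, pocket protein and MuvB genes 10 were lower and 4 higher in Atf4-/- cells in normal medium, where 21.4% of all genes tested were lower and 30.2% higher. The repressive E2F genes E2f8 (-1.78 ± 0.27) and E2f7 (-1.48 ± 0.17) and the MuvB partner Mybl2 (-1.10 ± 0.18) were lower. Rbl2, which encodes the pocket protein p130 of the DREAM complex, was higher (0.76 ± 0.09, limma adjusted p = 2.13e-06), as were Rb1 (0.61 ± 0.19), the retinoblastoma gene, the MuvB gene Lin37 (0.57 ± 0.13) and the E2F partner gene Tfdp2 (0.50 ± 0.09). Of 13 D-type cyclins, their kinases and CDK inhibitors 8 were lower and 3 higher. The inhibitor genes Cdkn2a (-1.80 ± 0.30), Cdkn2b (-1.38 ± 0.25) and Cdkn2c (-1.14 ± 0.13) were lower, as was the cyclin gene Ccnd2 (-1.06 ± 0.12). Cdkn1a, the gene of the CDK inhibitor p21, was higher (0.86 ± 0.08), with Cdkn1c (0.46 ± 0.16) and Cdkn1b (0.29 ± 0.11), the genes of p57 and p27. Cdkn1a was also higher in cells labelled Cebpg-/- (0.42 ± 0.08). The part of these regulators in the result was not tested.

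Markers of other cells moved with genotype beside these results. In normal medium 7 of 14 macrophage markers were higher and 1 was lower in Atf4-/- than in WT cells, against 30.2% and 21.4% of all genes. The mean level of the markers was 7.80 to 8.02 on the WT arrays and 8.18 to 8.36 on the Atf4-/- arrays. It was 8.53 to 8.94 on the arrays labelled Cebpg-/-, where 12 of 14 markers were higher, against 1687 of the 13728 genes tested. The 2 most abundant markers, Lyz2 and Ctss, were at 12.41 and 10.28 in Atf4-/- cells against 11.30 and 9.33 in WT cells. Only Aif1 lay under 4.65, in Atf4-/- cells (4.38). The mean over 11 fibroblast markers was 10.55 to 10.76 in WT, 10.03 to 10.31 in Atf4-/- and 9.84 to 10.24 in cells labelled Cebpg-/-. Single fibroblast markers went both ways in Atf4-/- cells: Col1a1 (-1.97 ± 0.15) and Col3a1 (-1.56 ± 0.11) were lower and Lum was higher (1.74 ± 0.29). Their part in the Atf4-/- result was not tested.

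In cells labelled Cebpg-/- the 40 genes were not found to differ from WT in normal medium. No gene passed limma's test, 0 had an unadjusted p under 0.05, and 23.3% of all genes tested were called. The fit pools the spread of a gene over all 6 groups, so the wide spread in Atf4-/- cells widens the SEs of the 40 genes here. The median differences were -0.03 for the replication genes and -0.04 for the mitotic genes. The largest was that of Mki67, at -0.40 ± 0.25 with a 95% interval from -0.94 to 0.13, and its 3 arrays labelled Cebpg-/- (10.54, 10.38 and 10.41) lay below all WT arrays. Fitted on these 2 groups alone, 2 genes passed, Mki67 (-0.40, limma adjusted p = 0.00758) and Ccnb2 (-0.29, limma adjusted p = 0.0178). In 8 genes the arrays labelled Cebpg-/- all lay below WT and in 4 all above, where 18.1% and 24.8% of all genes did so. Of the wider lists 3 of 43 other replication genes were higher (Pold1, a polymerase subunit, by 0.45 ± 0.13, Orc5 by 0.40 ± 0.11 and Rpa1, which coats single-stranded DNA, by 0.30 ± 0.09), as were 3 of 59 other mitotic genes (Psrc1 by 0.65 ± 0.12, Ckap2 by 0.39 ± 0.12 and Gtse1 by 0.28 ± 0.09), and 0 of either list were called lower. Among the regulators Ccnd1, cyclin D1, was higher (1.02 ± 0.16) and Cdkn1c lower (-0.76 ± 0.16).

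Set directly against Atf4-/- cells, those labelled Cebpg-/- had 38 of the 40 genes higher in normal medium (22.2% of all genes) and 38 in AAD medium (21.4%). All 24 mitotic genes were higher in both media, with medians of 2.09 and 2.16, and 14 of 16 replication genes, with medians of 0.67 and 0.85. Plk1, for example, was 9.08, 9.09 and 8.99 in cells labelled Cebpg-/- against 6.86, 6.57 and 5.87 in Atf4-/- cells in normal medium. The call of Mcm6 in normal medium (0.30) was lost without the Atf4-/- array numbered 3 (0.17, limma adjusted p = 0.103), without the Cebpg-/- array numbered 2 (0.28, limma adjusted p = 0.0559) and with these groups fitted alone (limma adjusted p = 0.0593). In AAD medium only Ccnf differed between cells labelled Cebpg-/- and WT (0.74 ± 0.14 higher, limma adjusted p = 0.00101), where 29.5% of all genes were called.

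The medium moved few of the 40 genes by much within 3 h, and both group medians stayed near 0. In WT cells 3 genes passed without a replicate block, Cdt1 upward and Ccnf and Tyms downward, where 28.2% of all genes tested changed. Tyms is counted here and below, although it was tested only because of the groups in which it is high. The fit pools the spread of a gene over all 6 groups, so the wide spread of these genes in Atf4-/- cells widens their SEs here. Their count and the share of all genes are therefore not like for like. Fitted on the WT groups alone, 11 of the 40 passed, and the share of all genes in that fit is not given. The median change was 0.06 for the replication and 0.03 for the mitotic genes. All 3 AAD arrays lay above all normal ones for 17 of the 40 genes (20.6% of all genes) and below for 5 (21.8%), and with the replicate number as a block, which pairs the arrays, 14 of the 40 passed (39.2% of all genes). Atf4-/- cells changed 1 gene, Cdt1, against 4.7% of all genes, and cells labelled Cebpg-/- changed 4, Cdt1 and Tpx2 upward and Ccnf and Tyms downward, against 21.9%. Macrophage markers moved with the medium as well: of the 14, 5 fell in WT cells, 7 in cells labelled Cebpg-/- and 2 in Atf4-/- cells. Of the 13728 genes tested 1905, 1413 and 279 fell, in that order. The mean of the markers in WT cells went from 7.80 to 8.02 down to 7.42 to 7.62. Their part in the changes of the 40 genes was not tested.

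Cdt1, the licensing factor, rose in all 3 genotypes. It was 10.43, 10.65 and 10.44 in normal medium and 11.68, 11.76 and 11.59 in AAD medium in WT cells, a rise of 1.17 ± 0.09 (2.25-fold, limma adjusted p = 5.13e-08). In cells labelled Cebpg-/- it went from between 10.22 and 10.50 to between 11.54 and 11.68, a rise of 1.22 ± 0.09. In Atf4-/- cells 10.25, 10.20 and 10.08 became 10.79, 10.81 and 10.62, a rise of 0.56 ± 0.09 (1.48-fold, limma adjusted p = 0.00105). In no genotype did the media overlap. A second Cdt1 probe set rose by 1.19 ± 0.12 in WT cells, by 1.29 ± 0.12 in cells labelled Cebpg-/- and by 0.59 ± 0.12 in Atf4-/- cells.

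Ccnf, cyclin F, the substrate-binding subunit of an SCF ubiquitin ligase, went the other way. In WT cells it was 7.39 to 7.51 in normal medium and 6.23, 6.29 and 5.70 in AAD medium, a fall of 1.39 on the log2 scale (SE 0.14, limma adjusted p = 1.59e-06). In cells labelled Cebpg-/- it was 7.57, 7.58 and 7.60 and then 6.89, 6.73 and 6.81 (-0.78 ± 0.14, limma adjusted p = 0.000794). The media did not overlap in either. In Atf4-/- cells, already low at 5.82, 5.49 and 5.37, it was 6.03, 5.73 and 5.66 in AAD medium, and that change of 0.25 ± 0.14 did not pass (limma adjusted p = 0.416). The other Ccnf probe set fell too, by 1.13 on the log2 scale in WT cells and by 0.63 in those labelled Cebpg-/-. In AAD medium Ccnf differed between Atf4-/- and WT cells by -0.27 ± 0.14, which did not pass (limma adjusted p = 0.121). It passed without the WT array numbered 3 (-0.45, limma adjusted p = 0.00528) and without the Atf4-/- array numbered 1 (-0.38, limma adjusted p = 0.0436). It also passed with the mean of all probe sets (-0.39, limma adjusted p = 0.0166) and with array weights (-0.39, limma adjusted p = 0.00668).

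The values of Tyms, which was tested only because of groups in normal medium, are given as a description. They went in WT cells from 5.02, 5.11 and 4.75 to between 3.87 and 4.04 (-0.99 ± 0.15), and in cells labelled Cebpg-/- the change was -0.74 ± 0.15. All levels in AAD medium lay under 4.65, so the size of the fall is limited by the low signal. Tpx2 rose in cells labelled Cebpg-/- from 9.52, 9.52 and 9.50 to 9.91, 9.87 and 9.98 (0.41 ± 0.14, limma adjusted p = 0.0462). That call was lost in 17 of the 31 alternative settings, and with the mean of all its probe sets the change was 0.12.

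**Figure D4:**
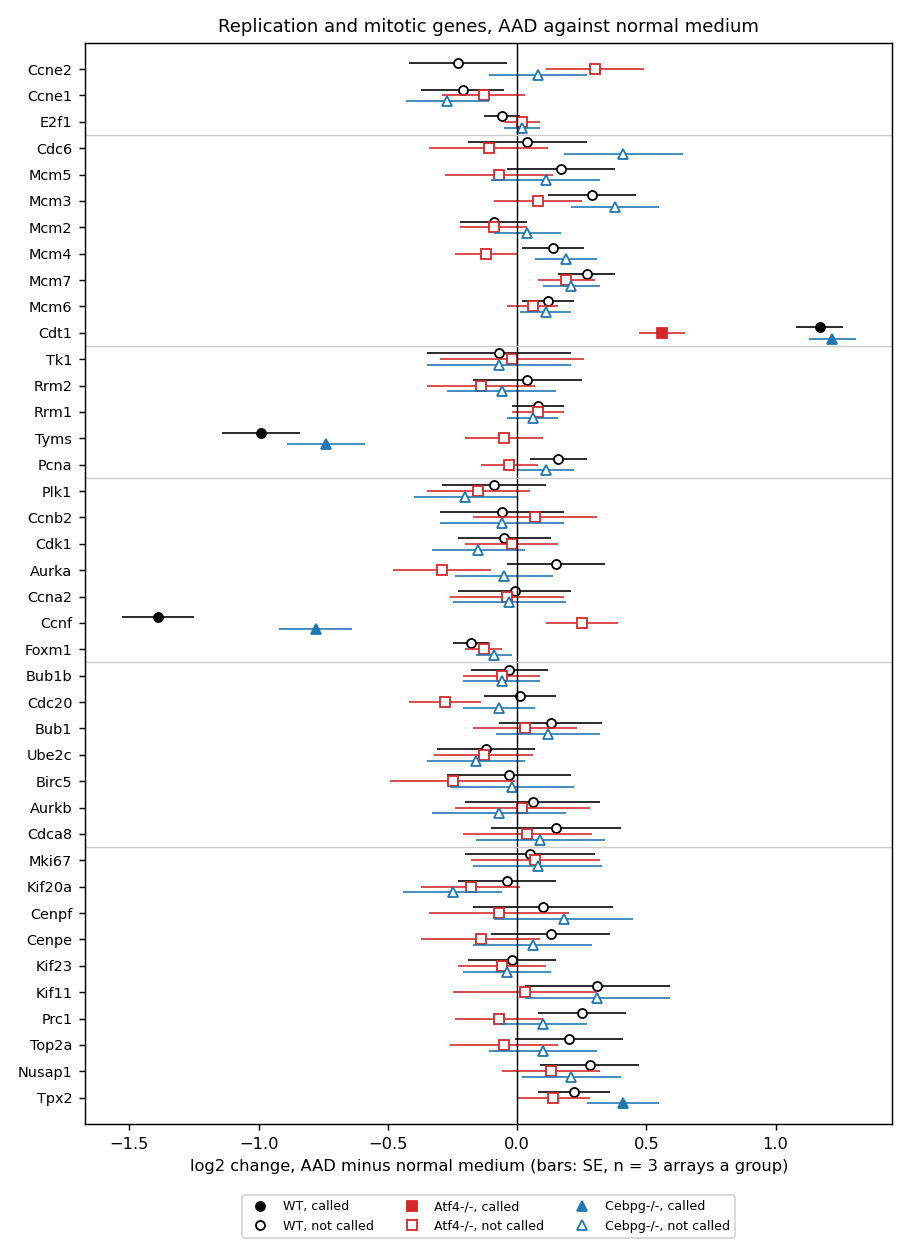
Log2 change in AAD medium against normal medium for each of the 40 genes in WT (circles), Atf4-/- (squares) and Cebpg-/- cells (triangles), with bars of 1 SE (n = 3 arrays per group). Filled markers passed the test. Most genes lie near 0 in all genotypes, while Cdt1 stands at 1.17, 0.56 and 1.22 and Ccnf at -1.39, 0.25 and -0.78 in the 3 genotypes in that order.

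With the replicate number as a block within each genotype, more small changes were called. In WT cells the 14 genes that passed were 11 upward and 3 downward. The rises were those of Cdt1, the helicase genes Mcm3 (0.29), Mcm4 (0.14), Mcm5 (0.17) and Mcm7 (0.27), Pcna (0.16), Top2a (0.20), Kif11 (0.31), Nusap1 (0.28), Prc1 (0.25) and Tpx2 (0.22). Ccne1 (-0.21), Tyms and Ccnf fell. Mcm7 was 11.66, 11.76 and 11.64 in normal medium and 11.96, 11.98 and 11.94 in AAD medium, a small rise with no overlap (blocked limma adjusted p = 0.00127, 0.0884 without the block).

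With the block, cells labelled Cebpg-/- had 15 genes called, 9 upward and 6 downward (34% of all genes). Kif11, Nusap1 and Tpx2 rose together with Cdc6 (0.41), Mcm3 (0.38), Mcm4 (0.19), Mcm7 (0.21), Cenpf (0.18) and Cdt1. Kif20a (-0.25), Plk1 (-0.20), Ube2c (-0.16), Ccne1 (-0.27), Tyms and Ccnf fell. In Atf4-/- cells 5 passed with the block (11.1% of all genes): Cdt1 and Mcm7 (0.19) rose, and Aurka (-0.29), Cdc20 (-0.28) and Birc5 (-0.25) fell. Apart from Cdt1, Tyms and Ccnf, none of the changes called with the block was larger than 0.41 in size. The Top2a probe sets disagreed: the one used here changed by 0.20 ± 0.21 in WT cells, while a dimmer one fell by 1.31 on the log2 scale (SE 0.15, limma adjusted p = 6.7e-06), and by 1.01 in cells labelled Cebpg-/-.

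**Figure D5:**
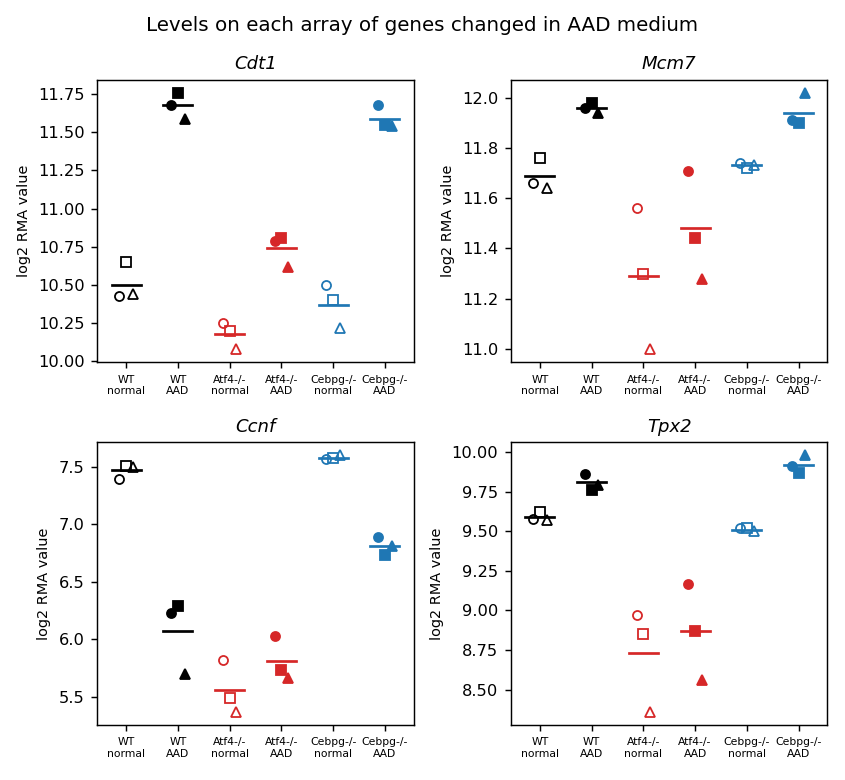
Log2 RMA value on each array of Cdt1, Mcm7, Ccnf and Tpx2, by genotype and medium. Bars are group means, the shape is the replicate number and filled markers are AAD medium. Cdt1 is higher in AAD medium in every genotype, while Ccnf is lower in WT cells (6.07 against 7.47) and in Cebpg-/- cells (6.81 against 7.58) and not in Atf4-/- cells (5.81 against 5.56).

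Whether the response to AAD medium depended on genotype was tested as the difference of the 2 changes. Between Atf4-/- and WT cells it passed for 3 genes, where 12.8% of all genes tested did. The rise of Cdt1 was smaller in Atf4-/- cells (-0.61 ± 0.12, limma adjusted p = 0.00322). For Ccnf the difference was 1.64 ± 0.20 (limma adjusted p = 4.38e-05): it fell in WT cells, and its change in Atf4-/- cells did not pass. The third gene was Tyms (0.94), which passed the filter only through groups in normal medium. This difference and the falls of Tyms in AAD medium are therefore not read as results. With the replicate block 13 genes passed (23.8% of all genes), 3 higher and 10 lower, among them Ccne2 (0.54), Aurka (-0.44), Prc1 (-0.32) and Kif11 (-0.29). The response of cells labelled Cebpg-/- was not found to differ from that of WT cells: limma called 0 of the 40 genes without the block (0.226% of all genes) and 0 with it (1.38%), 1 had an unadjusted p under 0.05, and the largest difference was that of Ccnf, 0.62 ± 0.20. Against Atf4-/- cells their response differed for Cdt1 (0.65 ± 0.12) and Ccnf (-1.02 ± 0.20), where 5.3% of all genes were called, and for 7 genes with the block (13.3%). These comparisons share arrays, so they are not independent of each other.

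Few genes of the wider lists were called in AAD medium in the fit without a replicate block. In WT cells 3 of 43 other replication genes rose and 4 fell, with a median of 0.08. Of 59 other mitotic genes 5 rose and 0 fell, with a median of 0.04. Among all genes tested 28.2% were called in WT cells, in either direction. Mcm10 (0.73 ± 0.16), Orc5, an origin recognition subunit (0.60 ± 0.11), and Dbf4, the activator of the CDC7 kinase (0.46 ± 0.10), rose, and Gins3 (-0.28 ± 0.07), Gins4 (-0.25 ± 0.08), Rnaseh2a (-0.23 ± 0.08) and Rpa3 (-0.22 ± 0.07) fell. The mitotic genes that rose were Kif18a (0.69 ± 0.15) and Ect2 (0.62 ± 0.15), which act on chromosome alignment and cytokinesis, Nek2 (0.49 ± 0.16), Ncaph (0.35 ± 0.09) and Ckap5 (0.26 ± 0.05). The activating E2F gene E2f3 rose in WT cells (0.46 ± 0.06) and in those labelled Cebpg-/- (0.44 ± 0.06), and its response differed between Atf4-/- and WT cells (-0.47 ± 0.09, limma adjusted p = 0.00223). In Atf4-/- cells limma called 0 of the other replication and 0 of the other mitotic genes, against 4.7% of all genes.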

How the data were processed

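RNA was measured on 18 Affymetrix Mouse Genome 430 2.0 arrays, 3 per group, grouped by the labels. The deposited values are log2 intensities that the authors made with RMA, per the submitters' processing notes (version not given in the sources used here). They range from 2.15 to 14.56, with array medians of 5.21 to 5.27, and arrays of a group correlated at 0.9954 to 0.9982. The number of arrays limits the precision. Of 45101 probe sets, 34958 were annotated to 1 gene, 932 to several and 9211 were not listed, giving 18194 genes. Each gene was represented by its brightest probe set.

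Genes whose highest group mean reached 4.65, the 40th percentile of all values, were tested: 13728, all 40 members among them. All 6 group means were fitted with limma 3.58.1 (R 4.3.3), with 12 residual degrees of freedom, moderated by eBayes, and p-values were adjusted by Benjamini-Hochberg within each of 12 comparisons. The procedure was tested on simulated data. Within a genotype, same-numbered arrays of the 2 media deviated together from their group means over all genes (r of 0.30 to 0.69 in 9 of 9 pairs). Arrays of different number (-0.56 to 0.09) or of different genotype and the same number (-0.28 to 0.19) did not. The number therefore pairs arrays within a genotype, and a fit with this block is given where it changed a call or count. The members, lists and motifs were chosen with earlier results of these data known. The text names all members, Atf4 and Cebpg, the most abundant markers, the 4 largest called changes of a wider list, and all genes of a count of 5 or fewer. E2f3 was named after its values were seen where it is followed beyond WT cells. Alternatives covered normalization, the filter, the choice of probe set, the variance model, array weights, the samples in the fit, replicate blocks and leaving out each array. A fit without both Atf4-/- arrays numbered 3 was added after seeing the data.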

Additional observations from a re-analysis of the deposited data

Results flagged for a closer look

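For Cdt1 and Ccnf the change in AAD medium differed between genotypes by a test of the difference itself (limma, adjusted over 13728 genes, n = 3 arrays per group). Between Atf4-/- and WT cells the change of Cdt1 differed by -0.61 (0.56 against 1.17) and that of Ccnf by 1.64 (0.25 against -1.39). Between cells labelled Cebpg-/- and Atf4-/- cells the change of Cdt1 differed by 0.65 (1.22 against 0.56) and that of Ccnf by -1.02 (-0.78 against 0.25). Both sets of comparisons use the same Atf4-/- arrays. Tyms also passed this test between Atf4-/- and WT cells (0.94, from -0.05 and -0.99), but its levels in AAD medium and in Atf4-/- cells lay under the filter level of 4.65. It was tested only because of the groups in which it is high, so that difference is not read as a result.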

How the results depend on the processing

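The falls in Atf4-/- against WT cells held over 30 settings: 38 to 39 of the 40 genes were called in normal medium and 37 to 39 in AAD medium. In normal medium the medians ran from -0.87 to -0.63 (replication) and -2.27 to -1.81 (mitotic). Counts of changes in AAD medium depended on the spread allowed for. With the fixed replicate block within genotype they were 14 in WT, 5 in Atf4-/- and 15 in cells labelled Cebpg-/-, with 13 for the response of Atf4-/- against WT cells and 7 for Cebpg-/- against Atf4-/- cells. The random replicate block gave 5 in WT and 7 in cells labelled Cebpg-/-. With only the groups compared in the fit, 11 genes were called in WT, 10 in cells labelled Cebpg-/-, and 2 (normal medium) and 5 (AAD medium) between Cebpg-/- and WT cells. Array weights gave 3 in Atf4-/- cells and 2 between Cebpg-/- and WT cells in AAD medium, where the mean of all probe sets gave 3. Shares of all genes are given above for the main fit and the fixed replicate block only. The counts under the other settings, here and below, cannot be read against all genes.

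Without both Atf4-/- arrays numbered 3 the counts were 9 in WT, 3 in Atf4-/-, 10 in cells labelled Cebpg-/-, 6 for the response of Atf4-/- against WT cells, and 2 (normal medium) and 4 (AAD medium) between Cebpg-/- and WT cells. The mitotic median of Cebpg-/- against Atf4-/- cells in normal medium was then 1.77.

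Leaving out 1 array at a time, the count called in Atf4-/- cells ran from 1 to 3, with medians of -0.14 to 0.17 (replication) and -0.32 to 0.17 (mitotic). For the response of Atf4-/- against WT cells it ran from 3 to 6, with medians of -0.27 to 0.08 and -0.38 to 0.14, and for Cebpg-/- against Atf4-/- cells the medians ran from -0.06 to 0.28 and -0.16 to 0.34. Between Cebpg-/- and WT cells 0 to 1 genes were called in normal medium and 1 to 2 in AAD medium, and the mitotic median of Cebpg-/- against Atf4-/- cells ran from 1.77 to 2.26. The highest counts came without the Atf4-/- array numbered 3 in normal medium, and the ends of the median ranges for the responses mostly without that array or the same-numbered one in AAD medium. With the mean of all probe sets the change of Top2a in AAD medium reversed to -0.35 in WT cells and -0.35 in cells labelled Cebpg-/-, since its probe sets disagree. The other causes were not tested. The signal near background limits Tyms.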
